A study of Mus musculus with 6 samples.

Results

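The genes described here are 9 mouse regulators and markers of the early nervous system, Pax6, Pax3, Emx2, Gbx2, Sox1, Sox11, Neurog2, Zfp521 and Nes. They were given as a list of names, and every probe set whose only annotated gene symbol was one of those names was taken. This found 9 probe sets, 1 for each gene, among 34760 on the array, and 9 genes among the 19937 tested. The cells were mouse embryonic stem cells (mES), which are cultured cells that can form all tissues of the embryo. In the knockdown group a mixture of 3 siRNAs against Trim71 was delivered with a lipid reagent, and cells were collected after 72 h. The control group is labelled as wild-type mES, and the growth protocol, given for all samples, names a non-targeting siRNA as the negative control. Whether the wild-type arrays come from cells that received it is not settled by the labels. No strain, sex or culture medium is named in the labels used here. Each group has 3 single-colour arrays, and the labels do not state whether the 3 came from separate cultures, so p-values reflect only how much these samples vary, and that variation could be technical.

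Vertebrate neural development starts with an ectoderm that turns on SOXB1 factors such as SOX1, after which homeobox and paired-box factors such as PAX6, EMX2, GBX2 and PAX3 divide the neural plate into regions. Proneural factors such as NEUROG2 then drive progenitors, which carry the filament protein nestin, towards neurons. Trim71, also known as Lin41, encodes an RNA-binding ubiquitin ligase of early embryos and stem cells, and mouse embryos without it fail to close the neural tube. Embryonic stem cells are not neural cells, and the levels given here are those of a bulk culture. In such a culture fewer cells that express a gene and less RNA of it per cell cannot be told apart.

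Of the 9 genes, Pax6, Emx2 and Gbx2 fell after Trim71 knockdown. Nes rose at the edge of the threshold, and Pax3, Sox1, Sox11, Neurog2 and Zfp521 did not pass the test. A gene was called when its p-value in limma, adjusted by the Benjamini-Hochberg method over 19937 genes, was under 0.05. Over all genes 3.39% were called higher and 2.15% were called lower, against 1 higher and 3 lower of the 9. These shares are 675 and 428 genes, and with arrays centred on their medians 527 were higher and 616 lower. Knockdown and control values stood fully apart for 4 of the 9 genes and for 25.5% of all genes. With 9 genes these counts are small, and the list was drawn up with results of these arrays known, so the shares describe the list and do not test it. The median log2 fold change (knockdown minus control) was −0.07 over the 9 genes and 0.01 over all genes.

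The promoters of the 3 genes that fell are printed to show what their start regions hold. The sequences are RefSeq's on mouse build GRCm38.p6 and run 5′ to 3′ over windows of 300 bases that span the annotated start of the gene, most of each window lying before it, with each CpG dinucleotide in capitals. Pax6 has 2 starts in that table. The upstream window lies at chr2:105668646-105668945 on the + strand and the downstream one at chr2:105682213-105682512 on the + strand. The Emx2 window is chr19:59458440-59458739 on the + strand, and the Gbx2 window is chr1:89931127-89931426 on the − strand.
Pax6, upstream start: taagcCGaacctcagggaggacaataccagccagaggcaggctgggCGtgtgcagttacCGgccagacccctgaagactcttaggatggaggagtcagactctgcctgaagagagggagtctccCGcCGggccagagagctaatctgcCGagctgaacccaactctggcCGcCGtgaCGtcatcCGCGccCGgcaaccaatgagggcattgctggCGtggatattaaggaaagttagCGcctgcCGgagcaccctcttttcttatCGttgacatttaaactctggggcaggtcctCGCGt
Pax6, downstream start: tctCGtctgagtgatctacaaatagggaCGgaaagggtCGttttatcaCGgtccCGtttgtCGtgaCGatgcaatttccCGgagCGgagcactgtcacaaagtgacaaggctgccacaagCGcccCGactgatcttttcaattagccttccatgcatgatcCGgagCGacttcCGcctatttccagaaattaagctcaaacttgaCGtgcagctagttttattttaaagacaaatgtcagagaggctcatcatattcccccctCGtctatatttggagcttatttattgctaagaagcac
Emx2: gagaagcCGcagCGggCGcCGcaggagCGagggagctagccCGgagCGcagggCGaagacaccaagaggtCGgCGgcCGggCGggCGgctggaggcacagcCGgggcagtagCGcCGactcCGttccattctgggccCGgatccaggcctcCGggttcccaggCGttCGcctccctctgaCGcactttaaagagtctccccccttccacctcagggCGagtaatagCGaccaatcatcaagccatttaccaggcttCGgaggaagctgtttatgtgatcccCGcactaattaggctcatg
Gbx2: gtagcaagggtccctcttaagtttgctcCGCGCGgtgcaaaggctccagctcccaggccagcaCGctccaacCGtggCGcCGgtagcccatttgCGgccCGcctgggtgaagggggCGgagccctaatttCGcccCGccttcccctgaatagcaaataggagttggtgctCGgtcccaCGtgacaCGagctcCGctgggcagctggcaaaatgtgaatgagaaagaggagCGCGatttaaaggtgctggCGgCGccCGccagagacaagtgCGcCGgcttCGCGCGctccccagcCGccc

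The Gbx2 window held 27 CpG dinucleotides, the Emx2 window 26, and the Pax6 windows 18 and 16. The median over 32851 windows of the same length, from 27025 genes, was 7 and the upper quartile was 20, so both Pax6 windows lay between these. Counts above the median were not particular to the genes that fell. Among the 9 genes, 7 had a window in the table (8 windows in all), and Sox1 had 37 CpG dinucleotides, Sox11 21, Nes 18 and Neurog2 10. Short motifs were searched on both strands. The homeodomain core TAATTA was found in the Emx2 window and in no other of the 8, and 5.29% of all windows hold it. The GC box GGGCGG was found in 6 of 8 windows, the 2 without it being those of Pax6, against 35.7% of all windows. CCAAT was found in 4 of 8 (37.4% of all windows) and the E-box CANNTG in 3 of 8 (72.3% of all windows), with 4 matches in the Gbx2 window. The TATA box TATAAA (13.6% of all windows) and the SOX core ACAATG (12.6% of all windows) were found in 0 of 8. No match of one motif overlapped a match of another in these windows. Matches of letters are not binding sites, and no binding was measured here.

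The knockdown itself was seen on every array. Trim71 (probe set 10597427) read 9.00, 8.95 and 8.98 log2 units on knockdown arrays 1, 2 and 3, against 10.48, 10.50 and 10.51 on control arrays 1, 2 and 3. Its signal in knockdown cells was 34.9% of that in control cells (95% interval 32.4 to 37.5%). Median log2 levels were 6.27 to 6.31 on knockdown arrays and 6.26 on all control arrays, and knockdown array 3 had the highest upper quartile, 8.42 against 8.32 to 8.35 on the other arrays. Markers of embryonic stem cells were bright, with Pou5f1 at a mean log2 level of 12.23, Nanog at 12.07 and Sox2 at 11.83 over the 6 arrays. The deposited values carry no detection call. In mean level Pax3 lay at percentile 27.8 of the 19937 genes and Neurog2 at percentile 33.3, and a change in the transcript of a dim gene could be understated.

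Pax6 encodes a transcription factor with a paired domain and a homeodomain that patterns the eye and the forebrain and sustains cortical progenitors. Its probe set (10474312) read 7.55, 7.44 and 7.76 log2 units on knockdown arrays 1, 2 and 3, against 8.28, 8.45 and 8.32 on control arrays 1, 2 and 3. All 3 knockdown values lay below all 3 control values, and knockdown array 3 was the nearest to the controls. The means were 7.58 ± 0.17 in knockdown cells and 8.35 ± 0.086 in control cells (SD, n = 3 each). Its log2 fold change was −0.76 ± 0.09 (SE, 95% interval −0.97 to −0.56), and the adjusted p in limma was 0.00573. The Pax6 signal in knockdown cells was therefore 58.9% of that in control cells, or 1.70-fold lower. Among all 19937 genes this was the 14th lowest fold change.

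Emx2 encodes a homeodomain factor of the dorsal forebrain, where it takes part in the layout of cortical areas, and of the urogenital tract. Probe set 10464391 read 5.62, 5.90 and 5.62 log2 units on knockdown arrays 1, 2 and 3, against 6.36, 6.64 and 6.57 on control arrays 1, 2 and 3. All 3 knockdown values lay below the lowest control value. Emx2 averaged 5.72 ± 0.16 in knockdown cells and 6.52 ± 0.15 in control cells (SD, n = 3 each). Its log2 fold change of −0.81 (95% interval −1.04 to −0.57, adjusted p = 0.00687 in limma), a level 1.75-fold lower, was the 10th lowest of all genes. Within the knockdown group Emx2 was highest on array 2, where Pax6 was lowest.

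Gbx2 encodes a homeodomain factor that sets the boundary between midbrain and hindbrain, and in mouse embryonic stem cells it also acts in self-renewal downstream of the cytokine LIF. Probe set 10356484 read 8.76, 8.74 and 8.71 log2 units on knockdown arrays 1, 2 and 3, against 9.02, 8.97 and 8.99 on control arrays 1, 2 and 3. The change was small, but the arrays within each group lay very close together, with SDs of 0.028 in knockdown cells and 0.025 in control cells. Gbx2 had a log2 fold change of −0.26 (95% interval −0.37 to −0.15, adjusted p = 0.0206 in limma), which is 1.20-fold lower. The interval of Gbx2 does not reach those of Pax6 and Emx2, and the differences between the genes were not tested.

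Nes encodes nestin, the intermediate filament protein of neural progenitors that is also made in other immature cells. Probe set 10493114 read 6.80, 6.77 and 6.91 log2 units on knockdown arrays 1, 2 and 3, against 6.52, 6.64 and 6.49 on control arrays 1, 2 and 3. Every knockdown value lay above every control value. Nes had a log2 fold change of 0.27 (95% interval 0.13 to 0.42), or 1.21-fold. Its adjusted p of 0.0497 in limma only just passed the threshold, and the call was lost whenever any of the 6 arrays was left out, with adjusted p-values of 0.0757 to 0.185. Nestin, the marker of progenitors in this list, thus went in the opposite direction to the 3 regulators that fell.

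**Figure D1:**
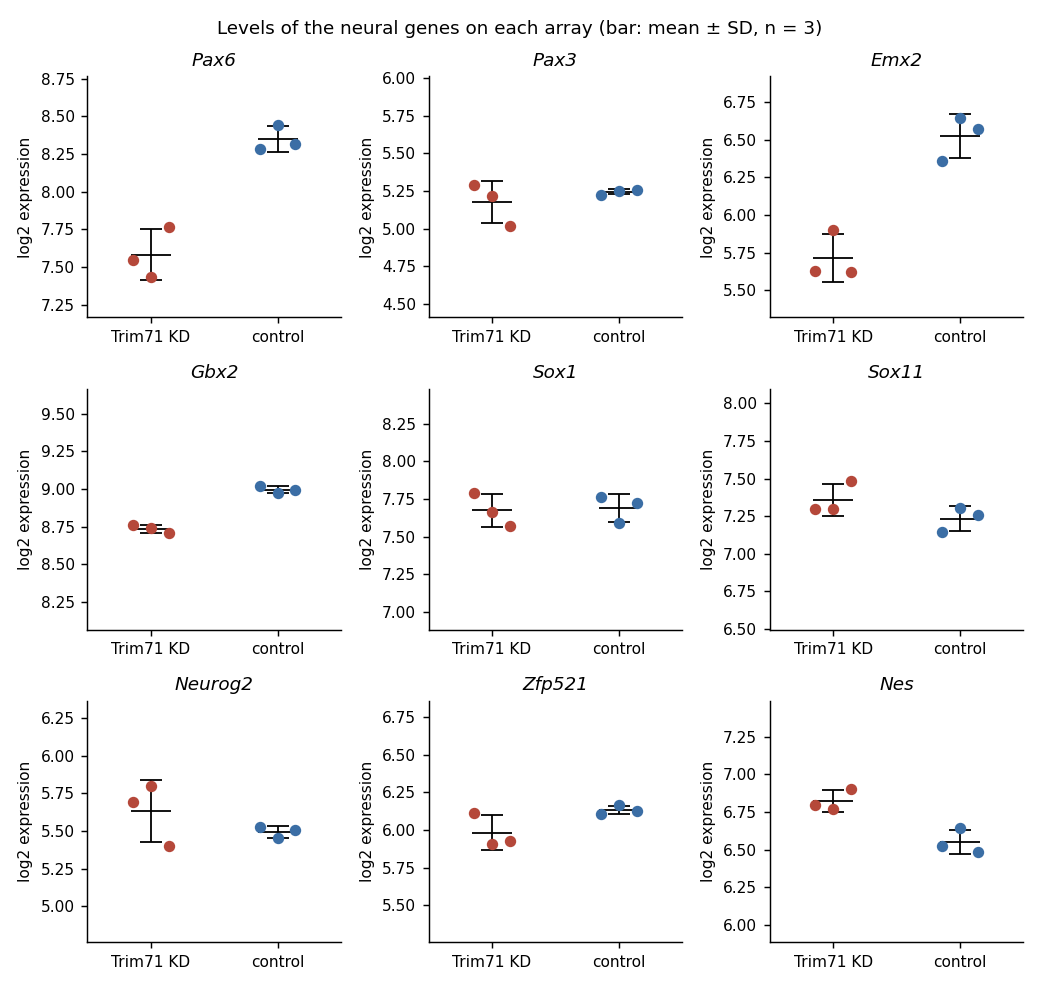
Each panel shows 1 gene, with log2 expression on a vertical axis of equal span and the 3 knockdown arrays (red, left) beside the 3 control arrays (blue, right) in the order of their replicate numbers; bars are mean ± SD. The red and blue points separate for Pax6, Emx2, Gbx2 and Nes and overlap for the other 5 genes.

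The remaining regulators of the list did not pass. Sox1, a SOXB1 factor and one of the earliest markers of neural ectoderm, read 7.79, 7.66 and 7.57 log2 units on knockdown arrays 1, 2 and 3, against 7.76, 7.59 and 7.72 on control arrays 1, 2 and 3. These values were interleaved. The log2 fold change of Sox1 was −0.02 with a 95% interval of −0.19 to 0.16 (adjusted p = 0.943 in limma), so a change as large as that of Pax6 lies outside the interval. Sox11, a SOXC factor of immature neurons, read 7.30, 7.30 and 7.48 log2 units in knockdown cells, against 7.14, 7.30 and 7.26 in control cells. Its highest control value lay above 2 of the knockdown values, and the log2 fold change of 0.12 (95% interval −0.04 to 0.29) had an adjusted p of 0.414 in limma.

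Pax3, a paired-box and homeodomain factor of the dorsal neural tube, the neural crest and muscle progenitors, read 5.29, 5.22 and 5.02 log2 units in knockdown cells, against 5.23, 5.25 and 5.26 in control cells. Knockdown array 3 alone lay clearly below the rest. Its log2 fold change was −0.07 (95% interval −0.24 to 0.10, adjusted p = 0.705 in limma), and without knockdown array 3 it was 0.01. Pax6 and Pax3, the 2 paired-box genes of the list, thus had different readings, but Pax3 was dim.

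Neurog2, a proneural factor of the basic helix-loop-helix class that promotes glutamatergic neurons of the cortex, read 5.69, 5.80 and 5.40 log2 units in knockdown cells, against 5.53, 5.45 and 5.51 in control cells. Again knockdown array 3 stood apart, here below all control arrays while the other 2 knockdown arrays lay above them. With all arrays the log2 fold change was 0.14 (95% interval −0.09 to 0.36, adjusted p = 0.534 in limma), and without knockdown array 3 it was 0.25 (adjusted p = 0.0502 in limma). Zfp521 encodes a zinc finger factor that is able to drive mouse embryonic stem cells into neural progenitors. It read 6.12, 5.91 and 5.93 log2 units in knockdown cells, against 6.11, 6.16 and 6.13 in control cells. Knockdown arrays 2 and 3 were below the controls and array 1 was among them, with a log2 fold change of −0.15 (95% interval −0.30 to 0.004, adjusted p = 0.276 in limma).

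**Figure D2:**
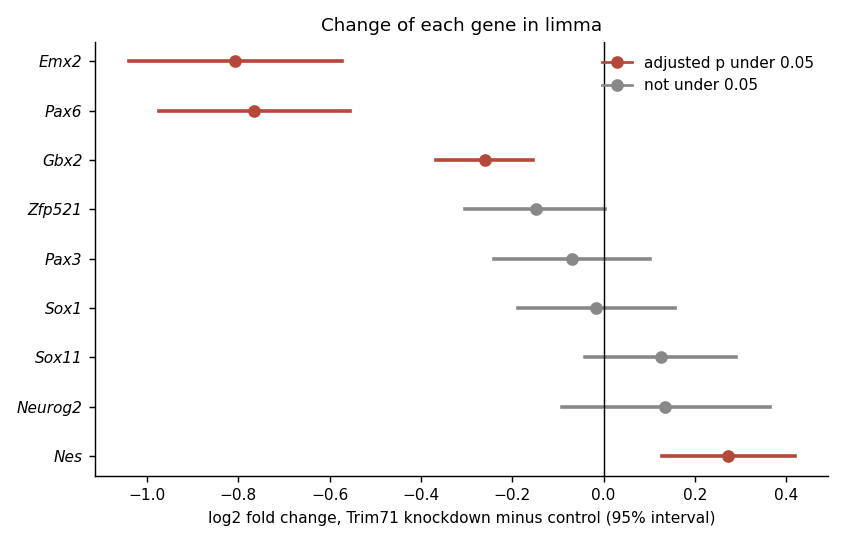
The log2 fold change (knockdown minus control, horizontal axis) of each of the 9 genes with its 95% interval from limma, ordered from the lowest at the top; red marks an adjusted p under 0.05. Emx2 and Pax6 stand at −0.81 and −0.76, Gbx2 at −0.26 and Nes at 0.27, and the intervals of the other 5 genes cross 0.

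The calls differed in how far they depended on single arrays. Pax6 and Emx2 were called with any of the 6 arrays left out, with adjusted p-values in limma of at most 0.0301 for Pax6 and 0.0365 for Emx2. Their log2 fold changes then ranged over −0.85 to −0.69 for Pax6 and −0.90 to −0.75 for Emx2. Gbx2 was called without knockdown array 1 or 3 and lost the call without knockdown array 2 or without any 1 of the control arrays, up to an adjusted p of 0.107, although its log2 fold change moved no further than −0.27 to −0.25. Without the variance moderation of limma only Gbx2 of the 9 genes passed, and Pax6 (adjusted p = 0.0661) and Emx2 (adjusted p = 0.0744) did not.

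**Figure D3:**
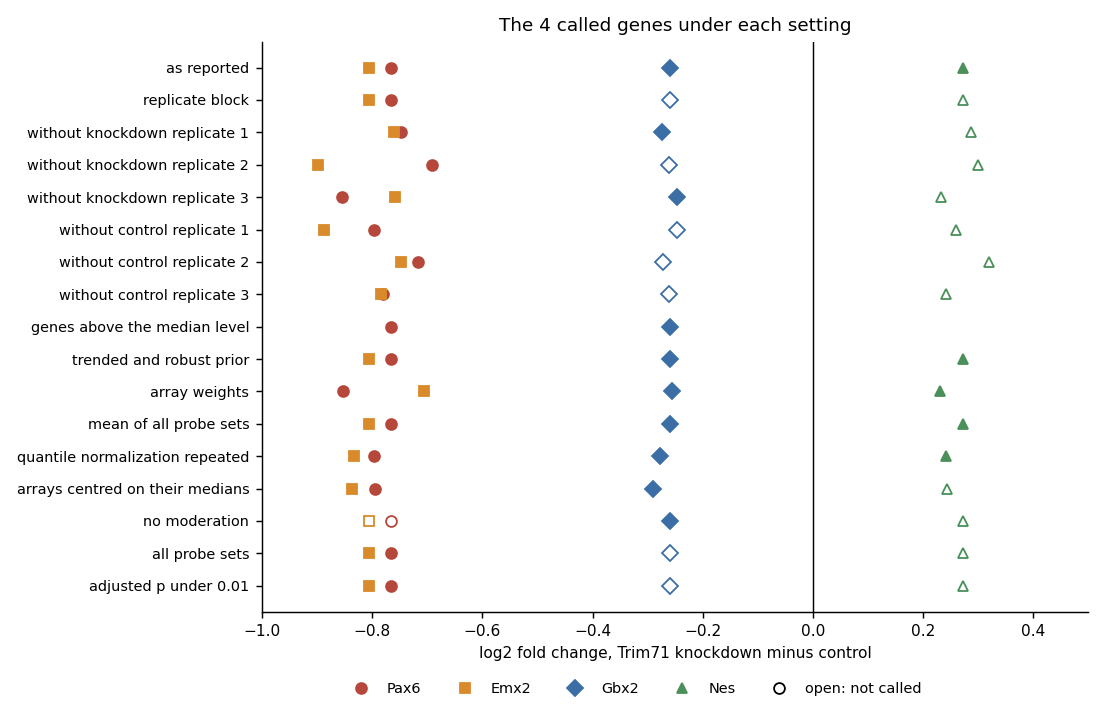
The log2 fold change (knockdown minus control, horizontal axis) of Pax6, Emx2, Gbx2 and Nes under the reported fit (top) and each alternative setting below it; filled symbols mark a call and open symbols none. The Pax6 and Emx2 symbols stay between −0.90 and −0.69 and are open only without moderation, while Nes is open under 11 of its 15 alternatives; Emx2 and Nes have no symbol for the setting of genes above the median level, which leaves both out.

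Transcripts beside these genes in the genome were looked at next. For each of the 9 genes, the nearest gene with a measured probe set on either side was taken from the RefSeq table, and of these 18 neighbours 0 were called in limma, and 4 had values that did not overlap between the groups, a share near the 25.5% of all genes. The lowest adjusted p among the 18 was 0.105, for Epha4 beside Pax3. Elp4, which overlaps Pax6 in that table and whose introns hold Pax6 enhancers, had a log2 fold change of −0.03 (adjusted p = 0.87 in limma). Sox1ot, a noncoding transcript that overlaps Sox1, had one of −0.11 (adjusted p = 0.392 in limma). Of the other antisense or overlapping transcripts in the rule, Pax6os1, Emx2os, Sox2ot and Pax3os, none had a probe set with a single symbol, and they were not analysed here.

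Genes with array patterns most like that of Pax6 were ranked by the root mean square difference of their 6 values from those of Pax6, after the mean of each gene was taken off. The 5 nearest of all genes were Mmd (0.053 log2 units), Wfdc2 (0.069), Atxn7l1 (0.072), Lefty1 (0.073) and Lpar4 (0.082). As follows from their choice by likeness to Pax6, each of these fell, with log2 fold changes of −0.84, −0.84, −0.75, −0.80 and −0.80. Lefty1 encodes a secreted antagonist of Nodal, Lpar4 a receptor for lysophosphatidic acid, and Wfdc2 a secreted protein with WAP domains. Emx2 was the nearest of the other 8 neural genes at 0.186, followed by Gbx2 at 0.281. The closest pairs among the 9 were Pax3 and Sox1 (0.07), Pax3 and Zfp521 (0.076), Gbx2 and Zfp521 (0.084), and Sox11 and Nes (0.09), and each of the last 2 pairs holds 1 called gene. All comparisons rest on the same 6 arrays and are a description.

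**Figure D4:**
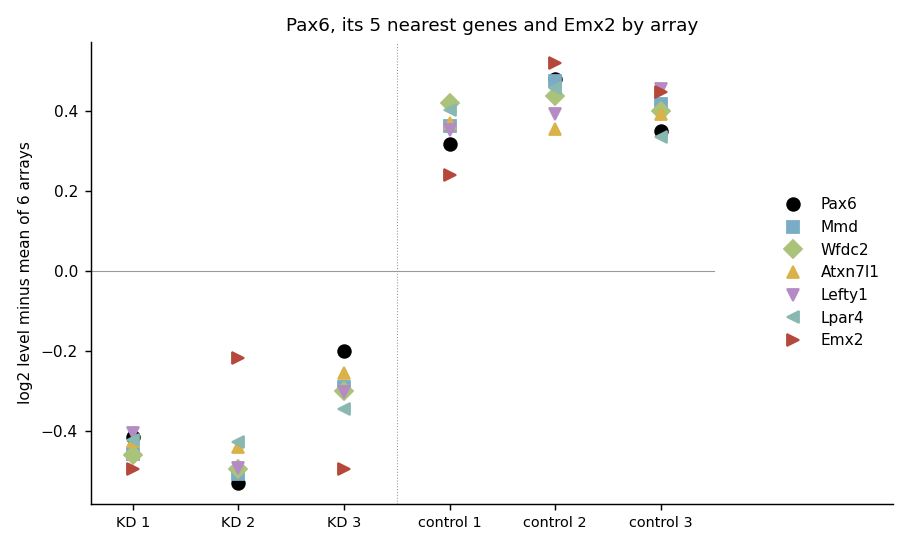
The log2 level minus the mean of the 6 arrays (vertical axis) of Pax6, its 5 nearest genes and Emx2 on the 3 knockdown arrays (left of the dotted line) and the 3 control arrays (right). Pax6 and its nearest genes, which were chosen for their likeness to it, share their highest knockdown value on array 3, where Emx2 is low.

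Further genes of neural development were taken from 6 lists: patterning factors, proneural and Notch genes, the SOX family, neural stem cell markers, neuronal markers, and genes of the neural crest and plate border. Together these hold 159 measured genes other than the 9. Of the 159, 7 rose and 9 fell, which is 4.4% and 5.66%, against 3.39% and 2.15% of all genes. Their median log2 fold change was −0.03, against 0.01 over all genes, and the groups did not overlap for 30.2% of them, against 25.5% of all genes. Leaving out 1 array at a time gave 1 to 5 higher and 2 to 10 lower genes, with the fewest calls without control array 1, 2 or 3, and 3 genes were called in all 6 such fits, Zic5, Neurod1 and Erbb3.

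Among 45 measured patterning factors, 3 fell and 1 rose, and 6 had an unadjusted limma p under 0.05, against 19% of all genes. Zic5, a zinc finger factor of the dorsal neural tube, read 9.04, 9.14 and 9.12 log2 units in knockdown cells, against 9.81, 9.79 and 9.69 in control cells. The groups were far apart, and the log2 fold change was −0.67 (adjusted p = 0.00185 in limma). Zic5 had 2 probe sets, and these values are those of the brightest, 10376241. The other was not looked at alone. That 10376241 reads Zic5 rests on the platform annotation, and its place in the genome was not checked. Meis2, a homeodomain partner of HOX and PBX factors, had a log2 fold change of −0.38, and Hesx1, a homeobox repressor of the anterior forebrain, had one of −0.27. En2, a homeobox gene of the midbrain and cerebellum, rose by 0.37. Hesx1 lost its call whichever array was left out (up to an adjusted p of 0.155 in limma), and Meis2 and En2 were called in 2 of the 6 such fits each (up to 0.11 and 0.118). The median log2 fold change of the 45 genes was −0.02, near the 0.01 of all genes.

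Among 26 proneural and Notch genes, 2 rose and 2 fell, with 8 at an unadjusted limma p under 0.05, against 19% of all genes. Neurod1, a factor of neuronal differentiation that acts downstream of neurogenins, read 6.99, 6.90 and 6.84 log2 units in knockdown cells, against 7.38, 7.35 and 7.51 in control cells. Its log2 fold change was −0.50 (adjusted p = 0.00748 in limma), while its upstream relative Neurog2 did not pass. The Notch ligand gene Dll1 had a log2 fold change of −0.27. Hey1, a target of Notch signalling, was at 0.29 and the corepressor gene Cbfa2t2 at 0.47, both higher in knockdown cells. With 1 array left out, Cbfa2t2 was called in 5 of 6 fits (up to an adjusted p of 0.051 in limma), Dll1 in 1 (up to 0.14) and Hey1 in 0 (up to 0.142).

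The SOX family had 18 measured genes besides Sox1 and Sox11, of which 1 rose and 1 fell. An unadjusted limma p under 0.05 was reached by 5 of the 18, against 19% of all genes. Sox15, which is closely related to the SOXB1 group and active in mouse embryonic stem cells, rose by 0.40 (adjusted p = 0.0261 in limma). Sox4, a SOXC factor like Sox11, had a log2 fold change of −0.41 (adjusted p = 0.0433 in limma), and each was called in 1 of the 6 fits with an array left out. Of 22 neural stem cell markers, 1 rose and 2 fell, with 9 at an unadjusted limma p under 0.05, against 19% of all genes. Msi2, an RNA-binding Musashi protein gene, rose by 0.27, Ptprz1, a receptor phosphatase gene of radial glia, was at −0.41, and Vim, the intermediate filament gene vimentin, was at −0.23. Vimentin and nestin, filament proteins that are found together in neural progenitors, had log2 fold changes of opposite sign. With 1 array left out, Nes was called in 0 of 6 fits (up to an adjusted p of 0.185 in limma) and Vim in 1 (up to 0.12). Ptprz1 was called in 5 such fits (up to 0.0511) and Msi2 in 2 (up to 0.0954).

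Of 29 neuronal markers 1 fell and 0 rose by limma's adjusted p, and 4 had an unadjusted p under 0.05, a threshold that 19% of all genes passed. The one that fell was Dpysl3, a collapsin response mediator gene of growing axons, at −0.50 (adjusted p = 0.0187 in limma, up to 0.0813 with an array left out). Of 21 genes of the neural crest and plate border 2 rose and 0 fell in limma, with 9 at an unadjusted p under 0.05, against 19% of all genes. Erbb3, a neuregulin receptor of crest-derived glia, read 9.59, 9.60 and 9.71 log2 units in knockdown cells, against 8.93, 9.01 and 8.92 in control cells. It rose by 0.68 (adjusted p = 0.00185 in limma), and Ets1, an ETS factor, rose by 0.28, with an adjusted p of up to 0.106 when 1 array was omitted.

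Partners and opponents of the members were looked at in further lists. Of 16 genes reported to act with ZFP521 or in the pathways it touches, 1 rose and 1 fell, and both held with any array left out. Over all genes 3.39% rose and 2.15% fell. An unadjusted limma p under 0.05 was reached by 4 of the 16, against 19% of all genes. Ebf1, a transcription factor that ZFP521 binds and inhibits, read 6.87, 6.93 and 6.98 log2 units in knockdown cells, against 7.82, 7.63 and 7.65 in control cells. The log2 fold change of Ebf1 was −0.78 (adjusted p = 0.00185 in limma). Gli1, a transcription factor and readout of hedgehog signalling, rose by 0.64 (adjusted p = 0.00192 in limma).

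BMP signals hold back neural fate in the ectoderm. Of 16 genes of this axis, 2 rose and 1 fell, against 3.39% and 2.15% of all genes. An unadjusted limma p under 0.05 was reached by 6 of the 16, against 19% of all genes. Id3, a BMP target that blocks proneural factors, rose by 0.35 (adjusted p = 0.00878 in limma), and the receptor gene Bmpr2 rose by 0.25. Bambi, a decoy receptor gene, had a log2 fold change of −0.34, and the ligand antagonists of the list, among them Nog, Chrd and Cer1, were not called. The groups overlapped for Nog and Chrd. For Cer1, at −0.23 (adjusted p = 0.124 in limma), they did not, as for 25.5% of all genes. The 3 calls reached adjusted p-values of 0.0594, 0.164 and 0.155 in limma with an array left out, for Id3, Bmpr2 and Bambi in that order.

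**Figure D5:**
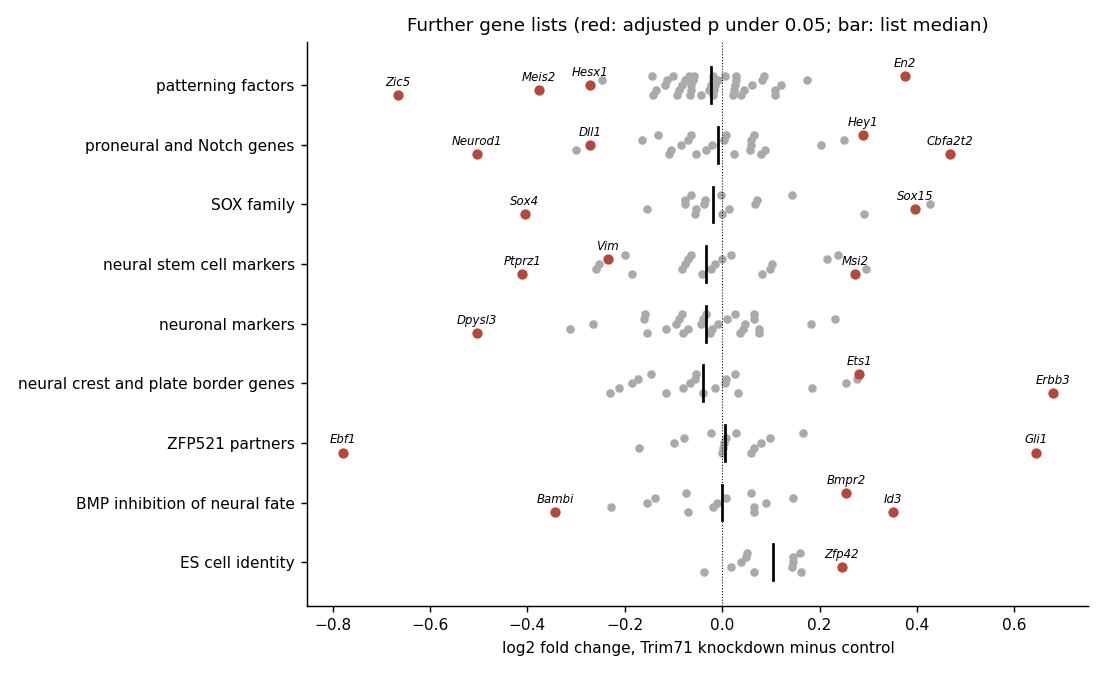
Each point is 1 gene of the list named at the left, with its log2 fold change (knockdown minus control) on the horizontal axis; named red points have an adjusted p under 0.05 in limma and black bars are list medians. Called genes lie on both sides of 0 in 6 of the 9 lists, and the list medians stay between −0.04 and 0.11.

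Markers of other cell types were set beside these results. Of 12 stem cell identity genes 1 rose, Zfp42 (Rex1) at 0.25 (adjusted p = 0.0232 in limma). An unadjusted limma p under 0.05 was reached by 6 of the 12, against 19% of all genes. The groups did not overlap for 8, all higher in knockdown cells, against 25.5% of all genes in either direction. The summed signal of the 12 was 15.33 to 15.38 log2 units on knockdown arrays and 15.25 to 15.29 on control arrays. In limma 0 of 15 fibroblast markers, which would show feeder cells, were called (0 at an unadjusted p under 0.05), and their summed signal was 9.74 to 9.93 log2 units on knockdown arrays and 9.80 to 9.91 on control arrays. Mean log2 levels of the 15 ran from 3.34 for Lum (percentile 3.5 of all genes) to 7.07 for Thy1 (percentile 54.5). Their median was 5.92, against 6.7 over all genes. Without a detection call, these levels do not settle whether feeder cells were present. Of 15 primitive endoderm markers 0 were called in limma (1 unadjusted), with a summed signal of 12.00 to 12.02 log2 units in knockdown cells and 11.93 to 11.96 in control cells. The brightest of the 15, Sparc, had a log2 fold change of 0.13 (adjusted p = 0.164 in limma), while the lineage regulators Gata6 and Gata4 were at −0.23 and −0.19 (adjusted p = 0.283 and 0.428 in limma). Of 13 mesoderm markers 0 were called (2 unadjusted), with 9.97 to 10.03 in knockdown cells and 10.03 to 10.04 in control cells. Over all genes 3.39% were called higher and 2.15% lower, and 19% had an unadjusted limma p under 0.05. With such shares, 0 calls in lists this small say little about these cell types. The stem cell count of 1 was 6 with a trended and robust prior and 3 among genes above the median level. It was 0 without any single array other than knockdown array 3. With a replicate block, over all probe sets and at an adjusted p under 0.01 the stem cell count was also 0. Mesoderm had 1 higher gene without knockdown array 1, and primitive endoderm had 1 with the trended prior, among genes above the median level and without moderation. The part of such shifts in the values of Pax6, Emx2, Gbx2 and Nes was not tested.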

How the data were processed

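Affymetrix arrays with 1 colour read the RNA of 3 Trim71 knockdown and 3 control samples. Amplification of 100 ng RNA used a whole-transcript kit with biotin as the label, per the labels' protocols. The deposited table holds log2 expression per probe set, from 2.26 to 13.53, and per the submitters' processing notes RMA and affy were used (versions not stated there). The quantile step of RMA hides a change shared by most genes. The values carry no depth, and the number of arrays limits the precision. Gene names came from the platform annotation in GEO (21640 with 1 symbol, 1321 with several, 11799 unnamed here), and 21553 of those with 1 symbol matched the RefSeq table of GRCm38.p6 by gene identifier. The brightest probe set stood for each of 954 genes with several.

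A linear model with group as its only term was fitted with limma 3.58.1 (R 4.3.3, lmFit and eBayes) to all 19937 genes. Simulated data with known changes tested the fit. Errors are standard errors or 95% intervals of this fit, unless given as SD. The exact two-sided permutation p of a single gene, 3 against 3, cannot go below 0.1. It was 0.1 for each gene whose groups do not overlap. Tables and plots used Python 3.11.15, pandas 2.3.3, numpy 2.4.6 and matplotlib 3.10.9. Gene lists are described by counts and medians, without a set test. Named genes are the 9 members, Trim71, every called gene of a list, the 5 genes most like Pax6 and the listed antisense transcripts. Pou5f1, Nanog, Sox2, Lum, Thy1, Nog, Chrd, Cer1, Sparc, Gata6, Gata4, Elp4 and Epha4 were added after their values were seen. The members and lists were chosen with earlier results of these data known. The same replicate numbers did not pair the arrays. Other settings tried were a replicate block, omission of each array, genes above the median level, a trended and robust prior, array weights, the mean of all probe sets, a repeated quantile normalization, arrays centred on their medians, no moderation, all probe sets, and an adjusted p under 0.01.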

Additional observations from a re-analysis of the deposited data

How the results depend on the processing

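Pax6, Emx2, Gbx2, Nes, Sox11, Neurog2 and Zfp521 kept the sign of their log2 fold change under all alternatives tried, each of which could be computed for Pax6, Gbx2, Sox1 and Sox11, while the restriction to genes above the median level left out the other 5. Of 139 values of the 9 genes, 115 kept sign and side of the threshold, 20 lost the call and 4 changed sign. The 4 belonged to genes that were not called. With arrays left out, Pax3 ranged from −0.13 to 0.01 and Sox1 from −0.075 to 0.037. The count of lower members was 3, was 2 or 3 under all alternatives but one, and was 1 without moderation. The count of higher members, 1 for Nes, was 0 with a replicate block, with any array left out, among genes above the median level (where Nes was not tested), with arrays centred on their medians, without moderation, with all probe sets and at an adjusted p under 0.01. Trim71 was called under every alternative.

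Over all genes, 675 were called higher and 428 lower. With the replicate block these counts were 171 and 108. No pairing by replicate number was visible, since the correlations of same-numbered arrays were −0.017, −0.15 and −0.241. Those of differently numbered arrays ran from −0.228 to 0.284, and pairing in another order was not tested. Calls were 1124 and 766 among genes above the median level, 1213 and 854 with a trended and robust prior, 1114 and 1058 with array weights, 779 and 763 after repeated quantile normalization, and 527 and 616 with arrays centred on their medians. They were 271 and 142 without moderation, 266 and 134 over all probe sets and 152 and 94 at an adjusted p under 0.01. With an array left out they ranged from 148 to 603 higher and from 101 to 699 lower, the highest both without knockdown array 3. A stricter threshold can only lower the counts, and the causes of the other differences were not tested. Of 384 counts in the gene lists, 247 were equal or stayed within 1.5 times, 114 were lower and 23 higher. The 247 include counts that were 0 and stayed 0, as all 16 did for lower fibroblast markers. They therefore do not show how far calls held. The count of higher proneural and Notch genes was lower in 11 of 16 alternatives, while that of lower ZFP521 partners stayed in all 16. Dim genes such as Pax3 and Neurog2 limit what the arrays can show.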
